A study of Mus musculus with 60 samples.

Results

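The genes described are 10 genes for complement receptors, C1q chains and complement regulators, of 49315 genes counted in whole blood. They were chosen by name, as leukocyte-expressed genes outside the liver components C3 and Hc, and each was matched by its symbol to 1 gene identifier. The data go against that name for Serping1, which was high in mice with hepatocyte markers, and for C1q, which was near 0 in most mice. The members are C1qa, C1qb, C1qc, Serping1, Cfp, C3ar1, C5ar1, C5ar2, Itgam and Cd55. RNA sequencing was performed on blood from 60 male CD2F1 mice, purchased at 5 to 6 weeks of age, in 10 groups of 6. Every mouse was gavaged with 12 doses of vehicle or of BIO 300, an oral powder that holds synthetic genistein as an amorphous solid dispersion. Mice given vehicle or BIO 300 at 50, 100 or 200 mg/kg (the Low, Med and High groups) were bled on Day 0, when 24 h had passed since dosing ended. Other mice given the same 4 treatments were bled on Day 1, at 48 h from the end of dosing. The remaining groups, Vehicle TBI and High TBI (200 mg/kg), received 9.2 Gy of 60Co total-body irradiation (TBI) on Day 0 and were bled 24 h later, on Day 1. All groups share the gavage, and each mouse was bled once, so the days were compared between different mice. Mice are named below by their animal number.

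Complement is a cascade of plasma proteins that tags microbes and dying cells and releases small inflammatory fragments. C1q starts its classical pathway by binding antibody on a surface, and properdin stabilises the C3 convertase of the alternative pathway. The fragments C3a and C5a act on leukocytes through receptors of their own, the surface-bound fragment iC3b is taken up through integrins such as CR3, and regulators in plasma and on membranes keep the cascade off host cells. Most plasma components are made by the liver, whereas macrophages make much of the C1q and circulating leukocytes carry the receptors.

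Each mouse produced between 15099415 and 45589415 counts, with a median of 24877993.5. Levels are given as CPM, counts relative to library size, scaled by the trimmed mean of M values (TMM) over all 60 mice. A differentially expressed (called) gene had a log2 fold change above 1 in size and an adjusted p below 0.05 by edgeR's quasi-likelihood test with Benjamini-Hochberg adjustment over all genes tested. Genes of neutrophils, monocytes, lymphocytes, platelets and erythroid cells were detected in every group, as the label whole blood implies. In 10 mice, at least 10 of 16 hepatocyte genes lay over 10 CPM, and these mice are called hepatocyte-marked. They fell in 9 of the 10 groups, 2 in Vehicle TBI and 0 at 50 mg/kg on Day 1, and results that rest on them are given with and without them. In bulk blood, fewer cells of a type and less RNA per cell cannot be told apart.

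All 10 members passed the minimum of 10 summed counts in every comparison. Over 60 mice, the median level per kilobase of exon was highest for Cd55, at 20.2 CPM per kilobase. C5ar1 followed with 7.46, Cfp with 3.69, Itgam with 2.18, C5ar2 with 1.62 and C3ar1 with 1.47 CPM per kilobase. The C1q genes and Serping1 lay between 0.124 and 0.205 CPM per kilobase. In Vehicle TBI mice the order changed, with a group median of 68.2 CPM per kilobase for C5ar1, 15.9 for Cfp, 13.2 for Itgam, 12.4 for C5ar2, 4.11 for Cd55 and 2.20 for C3ar1. Cfp, Itgam and C5ar2 lay closer to each other than the spread between these mice.

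**Figure D1:**
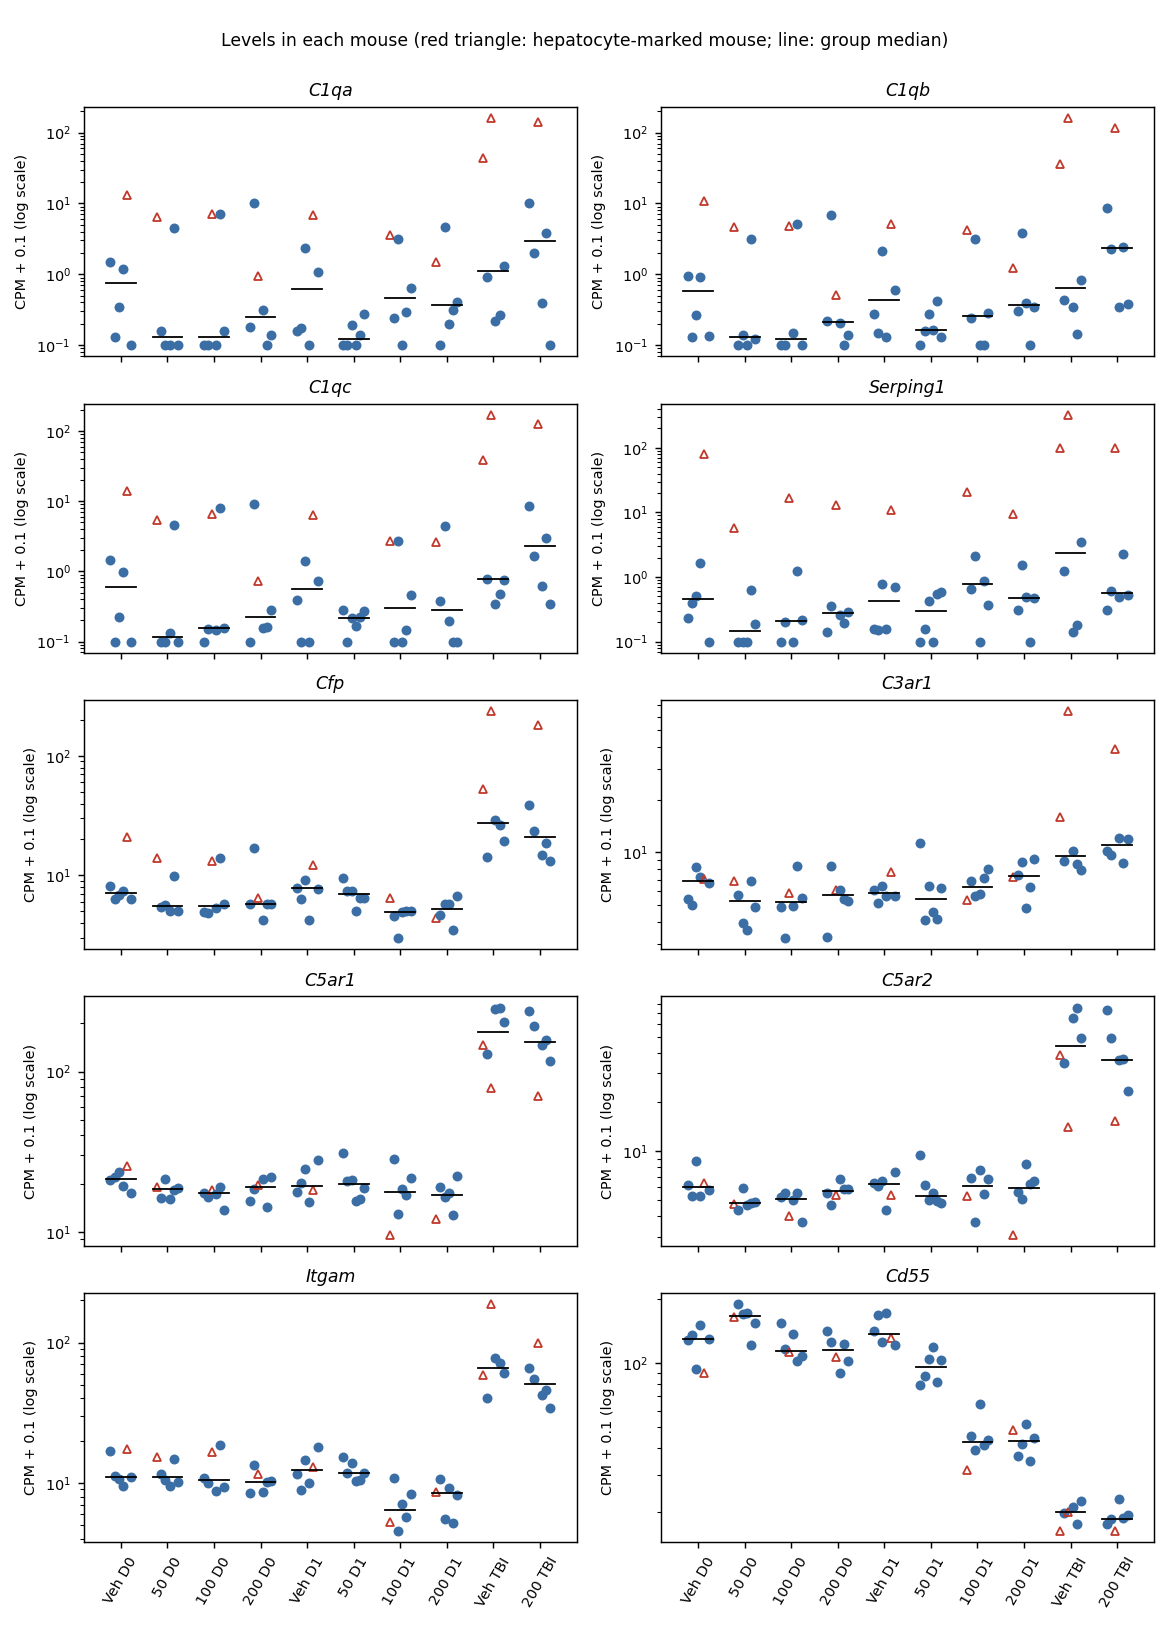
Level of each member in each of 60 mice, as CPM + 0.1 on a log scale, by group. Lines are medians of 6 mice and red triangles are the 10 hepatocyte-marked mice. C5ar1, C5ar2, Itgam and Cfp lie higher in the irradiated groups, Cd55 lies lower at 100 and 200 mg/kg on Day 1 and lowest after irradiation, and C1q and Serping1 are high in scattered mice.

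The 3 C1q genes are neighbours on the minus strand of GRCm38, C1qa at chr4:136895917-136898803, C1qc at chr4:136889804-136893065 and C1qb at chr4:136880129-136886187. C5ar2 (chr7:16234585-16244154) and C5ar1 (chr7:16246743-16259540) are likewise neighbours on one strand. The others are Cd55 (chr1:130439027-130462744), Serping1 (chr2:84765387-84775444), C3ar1 (chr6:122847138-122856161), Itgam (chr7:128062640-128118491) and Cfp (chrX:20925454-20931555). RefSeq promoter windows of GRCm38.p6, from 250 bases before to 50 bases after a RefSeq start, were found for 8 members. A RefSeq start can differ from the start of the GENCODE span given above. The C5ar1 window lies mostly inside its span. C5ar2 had 2 windows, so the 8 members had 9. Windows are shown for the neighbouring C5a receptor genes and Itgam, which rose after irradiation, and for Cd55, which fell. Capitals mark GAGGAA, the core bound by the myeloid factor PU.1, and GGGCGG, the GC box, on either strand. The motifs did not overlap in any window.
C5ar1, chr7:16259289-16259588, minus strand: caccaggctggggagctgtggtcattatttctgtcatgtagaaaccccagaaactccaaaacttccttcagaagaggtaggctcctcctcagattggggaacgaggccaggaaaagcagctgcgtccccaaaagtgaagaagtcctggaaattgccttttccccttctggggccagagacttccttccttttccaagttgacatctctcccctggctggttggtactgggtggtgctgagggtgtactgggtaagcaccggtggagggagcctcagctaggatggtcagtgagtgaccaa
C5ar2, chr7:16244105-16244404, minus strand: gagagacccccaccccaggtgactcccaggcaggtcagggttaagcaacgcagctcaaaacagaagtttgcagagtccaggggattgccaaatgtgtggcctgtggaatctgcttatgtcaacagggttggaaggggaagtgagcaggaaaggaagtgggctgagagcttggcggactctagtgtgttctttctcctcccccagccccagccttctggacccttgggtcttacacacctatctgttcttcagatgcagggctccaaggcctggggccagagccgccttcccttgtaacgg
Itgam, chr7:128062390-128062689, plus strand: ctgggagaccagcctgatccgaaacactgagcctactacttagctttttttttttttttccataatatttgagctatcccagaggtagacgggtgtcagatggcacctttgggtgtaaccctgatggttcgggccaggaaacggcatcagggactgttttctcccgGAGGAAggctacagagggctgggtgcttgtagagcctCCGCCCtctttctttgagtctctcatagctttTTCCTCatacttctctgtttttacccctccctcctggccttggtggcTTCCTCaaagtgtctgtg
Cd55, chr1:130462695-130462994, minus strand: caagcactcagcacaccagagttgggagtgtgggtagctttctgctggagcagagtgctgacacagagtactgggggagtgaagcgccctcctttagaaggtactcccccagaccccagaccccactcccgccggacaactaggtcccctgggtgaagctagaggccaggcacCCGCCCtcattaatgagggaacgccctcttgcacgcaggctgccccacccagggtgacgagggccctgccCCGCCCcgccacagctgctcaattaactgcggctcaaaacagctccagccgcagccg
GAGGAA was present in 5 of the 8 members with a window, and in 28.3% of all 32851 promoter windows. GGGCGG was present in 4 of the 8 members, and in 35.7% of all windows. The Itgam window held 3 copies of GAGGAA, and the Cd55 window and the C5a receptor windows shown held 0. The second C5ar2 window, chr7:16242282-16242581, held 1 copy, which places C5ar2 among the 5 members. A match describes the letters of a window and not a bound site.

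Irradiation with vehicle raised both C5a receptor genes. C5ar1 encodes the main receptor of C5a, which draws neutrophils to inflamed tissue. It lay between 15.2 and 28.0 CPM, with a median of 19.1, in vehicle mice on Day 1 and between 79.0 and 249 CPM, with a median of 175, in Vehicle TBI mice. C5ar2 encodes the second C5a receptor, which does not couple to G proteins. It lay between 4.25 and 7.32 CPM, with a median of 6.18, without irradiation and between 14.0 and 75.5 CPM, with a median of 44.0, after it. The groups overlapped for neither gene, and mouse 51 was the lowest irradiated mouse for both. By edgeR's quasi-likelihood test the log2 fold change was 3.07 (SE 0.30, adjusted p = 1.11e-05) for C5ar1 and 2.93 (SE 0.35, adjusted p = 3.99e-05) for C5ar2. Within a mouse, the log2 ratio of C5ar2 to C5ar1 counts had a median of -1.80 (SD 0.16, n = 6) in vehicle mice on Day 1 and a median of -1.91 (SD 0.27, n = 6) in Vehicle TBI mice, so these groups overlapped.

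Itgam and Cfp rose as well. Itgam encodes the alpha chain of CR3 (CD11b), the receptor for iC3b on neutrophils and monocytes. It lay between 8.85 and 17.8 CPM, with a median of 12.2, in vehicle mice on Day 1 and between 39.9 and 187 CPM, with a median of 66.3, in Vehicle TBI mice. These groups did not overlap, mouse 51 was the highest, and the log2 fold change was 2.67 (SE 0.34, adjusted p = 6.21e-05). Of the exon length of Itgam, 68.7% is shared with the overlapping gene model Gm49368, the other identifier that carried the symbol Itgam. Reads could be lost or split between them, and with both summed the log2 fold change was 2.68. Cfp encodes properdin, which neutrophils store and monocytes secrete. It lay between 4.13 and 12.2 CPM, with a median of 7.68, without irradiation and between 14.2 and 237 CPM, with a median of 27.6, after it, without overlap. The log2 fold change of Cfp was 2.95 (SE 0.66, adjusted p = 0.00291).

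C3ar1, the gene for the C3a receptor, was called by a smaller margin. It lay between 5.01 and 7.62 CPM, with a median of 5.77, in vehicle mice on Day 1 and between 7.82 and 64.2 CPM, with a median of 9.48, after irradiation. Among irradiated mice, mouse 51 had 64.2 CPM, mouse 49 had 15.9 CPM and the other 4 had at most 10.1 CPM, and on the scale of these 12 mice alone the groups overlapped at their edges. The log2 fold change was 1.62 (SE 0.50, adjusted p = 0.0177). Without mouse 51 it was 0.76 (adjusted p = 0.00407), under the fold limit, and without all hepatocyte-marked mice it was 0.66 (adjusted p = 0.000796). Against Day 0 it was 0.73 (adjusted p = 0.0106) without mouse 51.

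Cd55 moved in the opposite direction. It encodes decay-accelerating factor, the membrane regulator that breaks up C3 convertases on host cells. Cd55 lay between 121 and 171 CPM, with a median of 136, in vehicle mice on Day 1 and between 16.3 and 22.5 CPM, with a median of 19.9, in Vehicle TBI mice. The groups were far apart, and the irradiated mice lay close together. The log2 fold change was -2.91 (SE 0.15, adjusted p = 5.50e-07) by edgeR's quasi-likelihood test, rank 1 of 25146 genes by p. Its neighbour and close copy Cd55b had a mean of at most 1.63 CPM in any group tested, and reads that match both genes equally are not unique hits.

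Altogether 5 members were called higher and 1 lower after irradiation with vehicle, where 19.6% of all genes tested were called higher and 16.4% lower. The groups did not overlap for 5 members, and for 25.0% of all genes. The median log2 fold change was 3.01 over the members and 0.09 over all genes. The largest values among the members were those of the C1q genes and Serping1, none called. Without the hepatocyte-marked mice they were -0.21 for C1qa, -0.65 for C1qb, 0.12 for C1qc and 2.01 for Serping1. The median over all genes was then -0.16. Against the vehicle mice of Day 0, with the same irradiated mice, 5 members were again called higher and 1 lower, beside 15.1% and 11.8% of all genes. The log2 fold changes there were 3.14 (SE 0.31) for C5ar1, 3.01 (SE 0.37) for C5ar2, 2.72 (SE 0.31) for Itgam, 2.72 (SE 0.65) for Cfp, 1.54 (SE 0.46) for C3ar1 and -2.55 (SE 0.17) for Cd55. Without the hepatocyte-marked mice, C5ar1, C5ar2, Itgam and Cfp were called higher and Cd55 lower in both comparisons. Over all genes, 4813 were then called higher and 5476 lower of 23274 against Day 1, and 4431 and 4838 of 22568 against Day 0. The log2 fold change of Cfp was then 1.72 against Day 0. Against Day 1, that of Cfp was 1.71 (adjusted p = 1.90e-05), that of C5ar1 3.32, that of C5ar2 3.23, that of Itgam 2.35 and that of Cd55 -2.82.

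**Figure D2:**
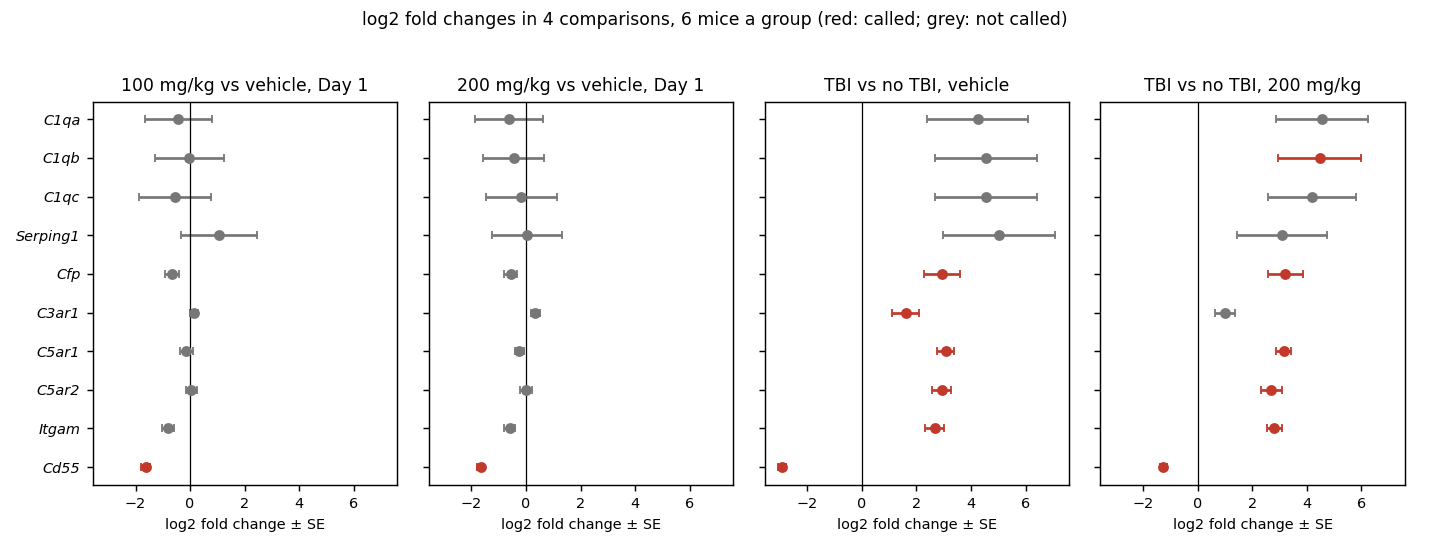
log2 fold changes of the members with their SE in 4 comparisons of 6 mice a group, where red points were called. Cd55 is left of 0 in all 4, from -2.91 to -1.25, and C5ar1, C5ar2, Itgam and Cfp are at 2.67 or higher in both irradiation comparisons.

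At 200 mg/kg BIO 300, C5ar1, C5ar2, Itgam and Cfp were called higher after irradiation, as with vehicle, and C3ar1 was not. C5ar1 lay between 11.9 and 22.1 CPM, with a median of 16.9, at 200 mg/kg on Day 1 and between 70.1 and 237 CPM, with a median of 152, after irradiation. C5ar2 lay between 2.99 and 8.31 CPM, with a median of 5.85, and then between 15.1 and 73.6 CPM, with a median of 36.3, after irradiation. Both genes rose without overlap, as did Itgam and Cfp, where 17.1% of all genes did not overlap. Itgam lay between 5.10 and 10.6 CPM without and between 34.0 and 98.9 CPM with irradiation, and Cfp between 3.36 and 6.64 CPM without and between 13.1 and 183 CPM with it. The log2 fold changes were 3.15 (SE 0.28) for C5ar1, 2.70 (SE 0.37) for C5ar2, 2.81 (SE 0.28) for Itgam and 3.21 (SE 0.64) for Cfp. C1qb was the fifth member called higher, with a log2 fold change of 4.47 (SE 1.53, adjusted p = 0.0450), but without mouse 57 it was 1.68 (adjusted p = 0.190). The call was also lost without mouse 43, 44, 46, 47, 48 or 55, with log2 fold changes of 4.46 to 4.63 and adjusted p from 0.0573 to 0.0803. C3ar1 had a log2 fold change of 1.01 (SE 0.36, adjusted p = 0.0556) and was not called in the edgeR fit of these 12 mice. It was called by DESeq2 (1.04, adjusted p = 0.0144), with total counts, with DESeq2 size factors, with filterByExpr, with no filter and in 1 fit over all 60 mice, with log2 fold changes of 1.01 to 2.10, and also without mouse 59 (1.12) or mouse 60 (1.26). Without the hepatocyte-marked mice it was 0.45 (adjusted p = 0.0731). Cd55 went from between 34.8 and 51.8 CPM to between 16.3 and 23.0 CPM, a log2 fold change of -1.25 (SE 0.13, adjusted p = 5.12e-05). In all, 5 members were called higher and 1 lower, where 14.9% of all genes were called higher and 5.73% lower. Without the hepatocyte-marked mice, 4 were called higher and 1 lower, beside 3873 higher and 1767 lower of 21088 genes, and Cfp had a log2 fold change of 1.99.

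The irradiated groups were then compared with each other, which asks whether BIO 300 changed these genes under irradiation. Of the 10 members, 0 were called in either direction, as were 0% of all 24916 genes tested with edgeR. At an unadjusted p under 0.05 there were 688 genes, and DESeq2's Wald test called 0. In 1 edgeR fit over all 60 mice, 179 genes were called higher and 11 lower of 29271, and 0 of these were members. The log2 difference, High TBI minus Vehicle TBI, was -0.25 (SE 0.32) for C5ar1, -0.29 (SE 0.41) for C5ar2, -0.57 (SE 0.38) for Itgam and -0.10 (SE 0.14) for Cd55. The levels of every member overlapped between these groups, and with these errors a small difference was not detectable.

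The test of the difference between the irradiation effects called 1 member higher and 0 lower, where 19.5% and 10% of all genes were called. The member was Cd55, with a difference, BIO 300 High minus vehicle, of 1.78 (SE 0.18, adjusted p = 1.13e-05) on the log2 scale, rank 3 of 26875 genes by p. After irradiation it lay between 16.3 and 22.5 CPM with vehicle and between 16.3 and 23.0 CPM with BIO 300. In the unirradiated groups of Day 1 it lay between 121 and 171 CPM with vehicle but between 34.8 and 51.8 CPM at 200 mg/kg. The unirradiated groups did not overlap, and the irradiated groups did. In the same test the B cell list had 8 called higher and 0 lower of 8 tested, with a median of 1.45, the T cell list 8 called higher and 0 lower of 8 tested, with a median of 2.42, and the platelet list 0 called higher and 7 lower of 7 tested, with a median of -2.44, and their part in the difference of Cd55 was not tested. The difference was 0.21 (SE 0.36) for C5ar1, -0.10 (SE 0.48) for C5ar2 and 0.25 (SE 0.45) for Itgam, none called.

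Without irradiation, Cd55 was lower on Day 1 at 100 and 200 mg/kg BIO 300 than with vehicle. It lay between 121 and 171 CPM with vehicle and between 79.3 and 119 CPM, with a median of 95.5, at 50 mg/kg. It lay between 31.5 and 64.3 CPM, with a median of 42.5, at 100 mg/kg and between 34.8 and 51.8 CPM, with a median of 43.0, at 200 mg/kg. The 50 mg/kg group lay below vehicle without overlap, and the 100 and 200 mg/kg groups lay below 50 mg/kg and overlapped each other. The log2 fold change from vehicle was -1.63 (SE 0.17, adjusted p = 1.31e-06) at 100 mg/kg and -1.66 (SE 0.13, adjusted p = 8.81e-08) at 200 mg/kg. At 50 mg/kg it was -0.57 (SE 0.12, adjusted p = 0.0840), not called. Cd55 was the 1 member without overlap at 50 mg/kg on Day 1, where 1.37% of all genes did not overlap. It was the 1 member called lower at the doses of 100 and 200 mg/kg, beside 0 called higher. Of all genes, 30.6% were called lower and 18.2% higher at 100 mg/kg, and 30.5% lower and 17.3% higher at 200 mg/kg.

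Of the other members, Itgam had a log2 fold change of -0.80 (SE 0.23, adjusted p = 0.00765) at 100 mg/kg and -0.60 (SE 0.21, adjusted p = 0.0236) at 200 mg/kg on Day 1, under the fold limit. Cfp had -0.66 (SE 0.24, adjusted p = 0.0269) and -0.56 (SE 0.24, adjusted p = 0.0548). C5ar1 had log2 fold changes of -0.14 (SE 0.24) and -0.24 (SE 0.18), C5ar2 of 0.04 (SE 0.19) and 0.02 (SE 0.22), and C3ar1 of 0.15 (SE 0.15) and 0.34 (SE 0.17). These directions depend on the scaling. Scaling by total counts moved the median of all genes by -1.38 for the 100 mg/kg dose and by -1.48 for 200 mg/kg, and 6 members were called lower at each dose, namely Cd55, Itgam, Cfp, C5ar1, C5ar2 and C3ar1. Relative to the median of all genes, Cd55 was at -1.25 with TMM and -1.28 with total counts at 100 mg/kg, and at -1.18 with TMM and -1.22 with total counts at 200 mg/kg. C5ar1 relative to that median was at 0.24 with TMM and 0.25 with total counts at 100 mg/kg. The split of all genes moved from 4314 higher and 7249 lower to 980 higher and 14735 lower at 100 mg/kg, and from 4073 and 7168 to 712 and 15407 at 200 mg/kg. The ratio of Cd55 to Itgam counts within a mouse does not depend on scaling, but it moves with Itgam as well as with Cd55. Its log2 mean on Day 1 was 3.53 ± 0.58 (SD, n = 6) with vehicle, 2.97 ± 0.38 at 50 mg/kg, 2.71 ± 0.42 at 100 mg/kg, 2.48 ± 0.38 at 200 mg/kg and -1.90 ± 0.75 in Vehicle TBI mice. The vehicle range, 2.77 to 4.25, overlapped those at 100 mg/kg (2.08 to 3.18) and 200 mg/kg (1.79 to 2.91).

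For irradiation the same exchange moved the median of all genes by -0.36 with vehicle against Day 1, by -0.14 against Day 0 and by 0.90 at 200 mg/kg. The split went from 4920 higher and 4122 lower to 3115 and 5666 against Day 1, and from 3521 and 1352 to 9100 and 223 at 200 mg/kg. With total counts, the log2 fold change against Day 1 was 2.65 (adjusted p = 3.77e-05) for C5ar1, 2.44 (adjusted p = 0.000809) for Itgam and -3.33 (adjusted p = 2.63e-06) for Cd55. At 200 mg/kg Cd55 then had -0.41 (adjusted p = 0.116) and was not called. For the difference between the irradiation effects, where the split went from 5248 higher and 2697 lower to 11725 and 483, Cd55 had 2.92 (adjusted p = 1.65e-06) with total counts.

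On Day 0, at 50 mg/kg on Day 1 and between the vehicle groups, 0 members were called. At 50 mg/kg on Day 0, 0.127% of all genes were called higher and 4.38% lower, and in the other 4 comparisons 0% were called in either direction by edgeR. At an unadjusted p under 0.05 there were 726 to 4458 genes in those 4, and DESeq2 called 2 at 100 and 2 at 200 mg/kg on Day 0, 3 higher and 38 lower between the vehicle groups, and 53 higher and 30 lower at 50 mg/kg on Day 1. At 50 mg/kg on Day 0, Cd55 lay between 122 and 189 CPM, with a median of 167, against between 89.6 and 150.3 CPM in vehicle mice, a log2 fold change of 0.42 (SE 0.14, adjusted p = 0.0571). With total counts, which moved the median of all genes by 0.66 and the split from 31 higher and 1072 lower to 2563 and 307, Cd55 was called higher (1.06). Between the vehicle groups, Day 1 minus Day 0, the log2 difference was -0.06 (SE 0.15) for C5ar1, -0.02 (SE 0.20) for Itgam and 0.24 (SE 0.14) for Cd55.

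The C1q genes behaved unlike the receptors, being near 0 in most mice and high in a few. C1qa, C1qb and C1qc encode the 3 chains of the C1q molecule. In 18 of 60 mice all 3 lay over 1 CPM, and these mice fell in 9 of the 10 groups, the exception being 50 mg/kg on Day 1. In the other mice their summed level was at most 3.56 CPM. Vehicle TBI mouse 51 had 158 CPM of C1qa, 158 of C1qb and 170.4 of C1qc, and High TBI mouse 57 had 140.2, 115 and 125 CPM. The medians of the Vehicle TBI group were 1.01 CPM for C1qa, 0.538 for C1qb and 0.668 for C1qc. Those of the High TBI group were 2.845, 2.265 and 2.228 CPM. In that group mice 55, 56, 57 and 59 had all 3 genes over 1 CPM, and of these only mouse 57 was hepatocyte-marked. Irradiated and unirradiated mice overlapped for all 3 genes. With vehicle irradiation against Day 1, the log2 fold change was 4.24 (SE 1.84, adjusted p = 0.0737) for C1qa, 4.56 (SE 1.86, adjusted p = 0.0597) for C1qb and 4.54 (SE 1.87, adjusted p = 0.0610) for C1qc, none called by edgeR, whereas DESeq2 gave 4.39 (adjusted p = 0.0203), 4.71 (adjusted p = 0.00852) and 4.70 (adjusted p = 0.0183). Without the hepatocyte-marked mice the log2 fold changes were -0.21 (SE 1.01), -0.65 (SE 0.95) and 0.12 (SE 0.88). At 50 mg/kg on Day 1, C1qa had a log2 fold change of -4.82 (SE 1.32, adjusted p = 0.114) by edgeR and -5.03 (adjusted p = 0.0460) by DESeq2. Without hepatocyte-marked mouse 29 of the vehicle group, which held 215 counts of C1qa, the edgeR value was -3.50 (adjusted p = 0.175). In this comparison the hepatocyte list had a median of -4.96 and the tissue macrophage list of -1.95, with 0 genes of either called.

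Serping1, which encodes the plasma C1 inhibitor, was high in the hepatocyte-marked mice. It lay between 5.71 and 325 CPM in those 10 and at most 3.37 CPM in the other 50. Its log2 fold change with vehicle irradiation against Day 1 was 5.03 (SE 2.06, adjusted p = 0.0602), not called by edgeR. It was called by DESeq2 (5.19, adjusted p = 0.00654), with filterByExpr (5.08, adjusted p = 0.0411) and in 1 fit over all 60 mice (5.12, adjusted p = 0.0311), and it was 2.01 (adjusted p = 0.0822) without the hepatocyte-marked mice.

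Markers of tissue cells moved with these 4 genes. The summed level of 8 tissue macrophage genes (Vsig4, Clec4f, Timd4, Cd5l, Marco, Adgre1, Mrc1 and Cd163) was 936 CPM in mouse 51, 426 in mouse 57 and 155 in mouse 49, where summed C1q was 487, 379.6 and 117 CPM. It lay between 14.7 and 936 CPM in the 18 mice with C1q and between 6.40 and 40.4 CPM in the others, and Marco was at 0 in every mouse at 50 mg/kg on Day 1. Of the 18 mice, 9 were hepatocyte-marked. One that was not, mouse 20 of 200 mg/kg on Day 0, had 25.5 CPM of C1q, 5.89 CPM summed over the 16 hepatocyte genes and 54.9 CPM over the 8 adipocyte genes. Over 60 mice, Spearman's rho with the tissue macrophage list was 0.66 for C1qa, 0.69 for C1qb, 0.72 for C1qc and 0.52 for Serping1. With the hepatocyte list, rho was higher for each, at 0.75 for C1qa, 0.79 for C1qb, 0.80 for C1qc and 0.83 for Serping1. These mice share groups and many values lie near 0. The part of tissue cells in these levels was not tested.

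**Figure D3:**
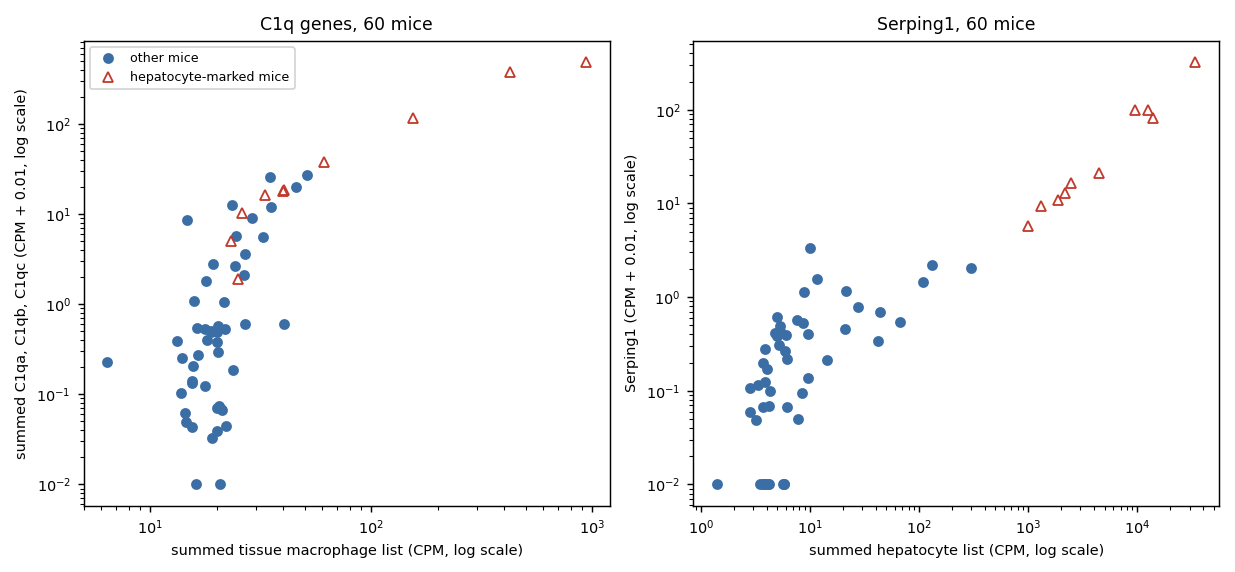
Summed C1q against the summed tissue macrophage list (left) and Serping1 against the summed hepatocyte list (right) in 60 mice, in CPM + 0.01 on log scales. Red triangles are the 10 hepatocyte-marked mice, which hold the 10 highest Serping1 levels, and mouse 51 is highest in both panels.

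The other members differed in the same mice. Mouse 51 had the highest Cfp (237 CPM), C3ar1 (64.2 CPM) and Itgam (187 CPM) of its group but the lowest C5ar1 (79.0 CPM) and C5ar2 (14.0 CPM). Mouse 57 showed the same order in its group, with 183 CPM of Cfp, 39.0 of C3ar1, 98.9 of Itgam, 70.1 of C5ar1 and 15.1 of C5ar2. Cd55 was 20.0 CPM in mouse 51 and 16.3 CPM in mouse 57, close to the other irradiated mice.

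Blood cell lists moved with the members as well. The summed level of 10 neutrophil genes had a median of 583 CPM (435 to 709.8) in vehicle mice on Day 1, 4597 CPM (1183 to 6672) in Vehicle TBI mice and 3621 CPM (1545 to 6155) in High TBI mice. With vehicle irradiation the list had 8 called higher and 1 lower of 10 tested, and mice 51 and 57 were the lowest of their groups for this list as for C5ar1. The summed level of 8 B cell genes, of which Cr2 is 1, had a median of 937 CPM (803 to 1266) in vehicle mice on Day 1, 742 CPM (604 to 973) at 50 mg/kg, 269 CPM (227 to 559.5) at 100 mg/kg, 296 CPM (133 to 439) at 200 mg/kg and 81.8 CPM (44.7 to 121) in Vehicle TBI mice. All 8 B cell genes and all 8 T cell genes were called lower at 100 mg/kg, at 200 mg/kg and after irradiation with vehicle. Over 60 mice, rho was 0.96 between Cd55 and the B cell list and 0.82 between Cd55 and the T cell list, and over the 48 unirradiated mice 0.93 and 0.70. With the platelet list, rho of Cd55 was -0.83 over 60 mice and -0.84 over the 48. With the neutrophil list, rho was 0.78 for C5ar1, 0.86 for C5ar2, 0.42 for Itgam and 0.46 for Cfp over 60 mice, and 0.58, 0.72, -0.11 and -0.0058 over the 48. Itgam and Cfp had their highest rho with the tissue macrophage list, 0.70 and 0.76 over 60 mice and 0.66 and 0.72 over the 48. That of C3ar1 was with the classical monocyte list, 0.72 and 0.52. The classical monocyte list had 2 called higher and 2 lower of 8 tested and the patrolling monocyte list 1 called higher and 2 lower of 8 tested after irradiation with vehicle. The platelet list had 7 called higher and 0 lower of 7 tested, with a median log2 fold change of 2.55, and the erythroid list 0 called higher and 0 lower of 7 tested. The NK cell list had 0 called higher and 5 lower of 8 tested, the list of eosinophils and basophils 0 called higher and 3 lower of 7 tested, the tissue macrophage list 4 called higher and 0 lower of 8 tested, the hepatocyte list 1 called higher and 0 lower of 16 tested, and the adipocyte list 2 called higher and 0 lower of 8 tested. The part of cell numbers in these results was not tested.

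**Figure D4:**
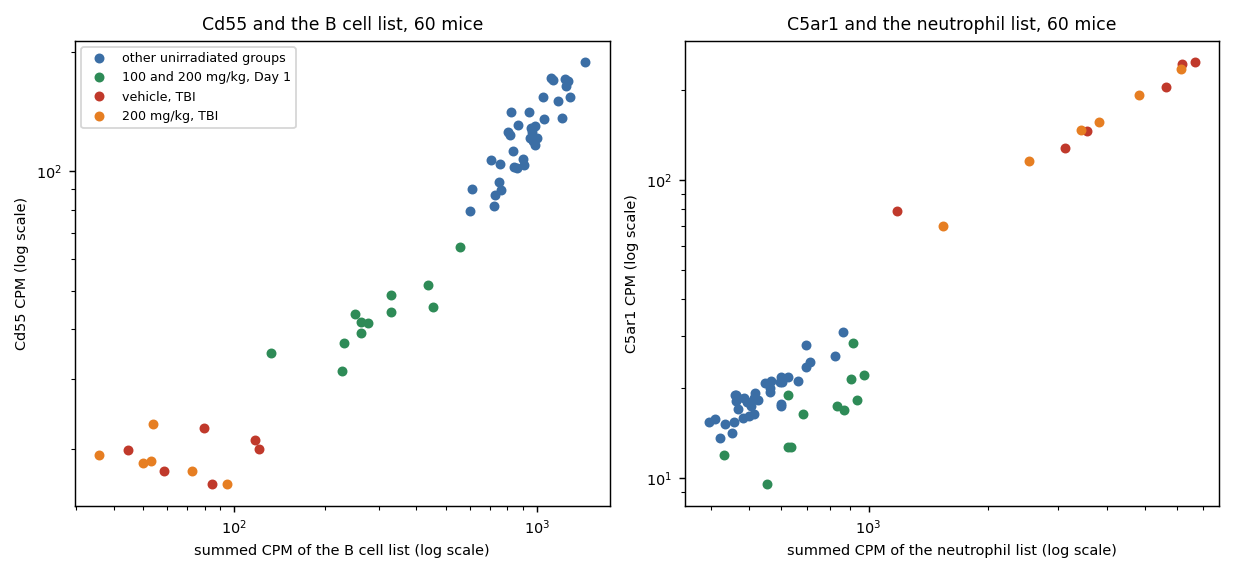
Cd55 against the summed B cell list (left) and C5ar1 against the summed neutrophil list (right) in 60 mice, in CPM on log scales. The 12 irradiated mice lie between 16.3 and 23.0 CPM of Cd55 and between 70.1 and 249 CPM of C5ar1.

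The genes most like each member over 60 mice were found by Spearman's rho among 6738 genes with a mean of at least 10 CPM, as a description over mice that share groups. For Cd55 they were Gm30211 (0.98), H2-Ob (0.98) and B3gnt5 (0.98), and H2-Ob belongs to the antigen-loading machinery of B cells. For C5ar1 they were Cxcr2 (0.94), Csf3r (0.94) and Nlrp3 (0.91), of which Cxcr2 and Csf3r encode neutrophil receptors and are on the neutrophil list. For C5ar2 they were Gcnt2 (0.86), Il1f9 (0.86) and Gm5150 (0.84). For Itgam they were Man2b1 (0.94), Tcn2 (0.93) and Fndc3b (0.92), and for Cfp Tcn2 (0.89), Fndc3b (0.87) and Itga5 (0.86). For C3ar1 the closest genes were less alike, namely Por (0.75), Padi4 (0.75) and Pygl (0.74). For C1qa they were C4b (0.89), Ednrb (0.83) and C4a (0.83), for C1qb C4b (0.91), Saa3 (0.85) and Ednrb (0.85), and for C1qc Saa3 (0.88), Ednrb (0.88) and C4b (0.86). For Serping1 they were Cyp2e1 (0.89), Pck1 (0.87) and Serpina3n (0.86), of which Cyp2e1 and Pck1 are active in hepatocytes. Between members, rho was 0.85 to 0.88 within the C1q genes, 0.79 for C5ar1 and C5ar2, 0.86 for Cfp and Itgam and -0.63 for C5ar2 and Cd55.

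The rest of the pathway was described from a list of 42 other complement genes. After irradiation with vehicle, 14 were called higher and 1 lower of 42 tested against Day 1, and 11 higher and 4 lower without the hepatocyte-marked mice. Over all genes, 19.6% were called higher and 16.4% lower, and without those mice 4813 higher and 5476 lower of 23274. Cr2, the receptor of C3d on B cells, fell from a mean of 72.9 to 6.87 CPM, a log2 fold change of -3.41 (SE 0.24, adjusted p = 1.73e-06). Clu, an inhibitor of the terminal pathway also carried by platelets, rose from 311 to 2075 CPM, a log2 fold change of 2.74 (SE 0.28, adjusted p = 1.53e-05). Itgb2, the beta chain that pairs with Itgam, rose from 186 to 598 CPM, a log2 fold change of 1.69 (SE 0.15, adjusted p = 7.63e-06). Against Day 0, 7 were called higher and 2 lower, beside 15.1% and 11.8% of all genes. The log2 fold changes there were -3.22 for Cr2, 2.26 for Clu and 1.60 for Itgb2.

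At 100 and 200 mg/kg on Day 1, 6 of the other complement genes were called higher and 2 lower at each dose, with a median log2 fold change of 0.88 and -0.30. Over all genes, 18.2% were called higher and 30.6% lower at 100 mg/kg, and 17.3% and 30.5% at 200 mg/kg. Clu had a log2 fold change of 3.12 (SE 0.26, adjusted p = 1.77e-07) at 100 mg/kg and 3.24 (SE 0.22, adjusted p = 2.67e-08) at 200 mg/kg. Cd59b, a gene for the membrane inhibitor of the attack complex, rose by 2.76 (SE 0.18) and 2.78 (SE 0.23) on the log2 scale, and its close copy Cd59a by 1.82 (SE 0.18) and 2.23 (SE 0.19). Cr2 had -1.89 (SE 0.26) and -1.99 (SE 0.24). These values are on the TMM scale. With total counts, 2 of the list were called higher and 8 lower at 100 mg/kg, and 2 and 10 at 200 mg/kg. Over all genes, 980 were then called higher and 14735 lower of 23699, and 712 and 15407 of 23513. All 7 platelet genes and all 7 erythroid genes tested were called higher at both doses, and their part in these changes was not tested. At 200 mg/kg, irradiation lowered Cd59a from 68.5 to 9.77 CPM, a log2 fold change of -2.81 (SE 0.26, adjusted p = 3.10e-05), as 1 of 3 genes called lower beside 3 called higher. Over all genes, 5.73% were called lower and 14.9% higher. The erythroid list there had 0 called higher and 5 lower of 7 tested, with a median of -1.67, and its part was not tested. The other 5 complement genes called, named after their values were seen, were Cd55b and Cr2, lower, and C3, Itgax and Vsig4, higher. The test of the difference between the irradiation effects called 1 higher and 6 lower, beside 19.5% and 10% of all genes. At 50 mg/kg on Day 0 the 3 called lower, beside 0 higher, were Cd59a (-1.70), Cd59b (-1.34) and Clu (-1.14), likewise named after their values were seen, and with total counts 0 were called higher and 1 lower. Over all genes, 0.127% were called higher and 4.38% lower, and with total counts 2563 higher and 307 lower of 24485. In that comparison the platelet list had 0 called higher and 4 lower of 7 tested and the erythroid list 0 called higher and 3 lower of 7 tested, and their part was not tested.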

How the data were processed

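Whole blood of 60 mice in 10 groups of 6 was sequenced, with groups taken from the labels. Per the labels and the study's methods, the authors used Trimmomatic 0.36 for trimming, STAR 2.5.2b for alignment to GRCm38 and Subread 1.5.2 for unique gene counts and they tested pairs of groups with DESeq2. The annotation release is not given in the sources used here, and the labels name polyA selection whereas the methods name a kit that removes ribosomal and globin RNA. The deposited raw counts were analysed. The deposited normalized signal, gene counts divided by size factors by the authors, equalled the raw counts up to 1 factor per mouse and was not tested. Columns of the authors' own fold changes and p-values were not used.

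Each pair of groups was fitted with edgeR 4.0.16 (R 4.3.3) by quasi-likelihood F test with TMM scaling, on genes with at least 10 summed counts, with Benjamini-Hochberg adjustment over all genes. A call needed a log2 fold change above 1 in size and an adjusted p below 0.05. The difference between irradiation effects was fitted over 24 mice. SE is the absolute log2 fold change divided by the square root of F. Scripts were tested on simulated data. Depth was 15099415 to 45589415 counts per mouse. Mice of a group were separate animals, and no pair of libraries agreed within sampling noise. Exon lengths and overlaps came from GENCODE vM21, whose identifiers matched 49056 of 49315 genes.

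The members and lists were chosen with earlier results of these data known. Named genes are all members, per comparison up to 3 called genes of the other complement list that changed most, among those without overlap whose mean reached 10 CPM in a group, and the 3 genes most like each member in log2(CPM + 1). Alternatives were total-count scaling, DESeq2 1.42.0, its size factors in edgeR, no filter, filterByExpr, 1 fit over all mice, leaving out each mouse or the hepatocyte-marked mice, and, chosen after seeing the data, Itgam summed with Gm49368. Promoter windows came from RefSeq.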

Additional observations from a re-analysis of the deposited data

Results flagged for a closer look

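A mouse lay far from the others of its group in 37 of the 100 sets of a member and a group examined, by Dixon's test of the gap to the next mouse in CPM. Chance gives about 1 in 20 for independent sets of normally distributed values. Here many C1q and Serping1 values lay near 0 with a few high, and the C1q genes moved together, so no excess over that rate can be read from the 37. The flags fell in 14 mice, 26 of them in hepatocyte-marked mice and 11 in others, and each was the highest mouse of its group. In Vehicle TBI mouse 51, the level was 158 CPM for C1qa, 158 for C1qb, 170 for C1qc, 237 for Cfp, 64.2 for C3ar1, 187 for Itgam and 325 for Serping1. In High TBI mouse 57 it was 140 CPM for C1qa, 115 for C1qb, 125 for C1qc, 183 for Cfp, 39.0 for C3ar1 and 100.4 for Serping1. Vehicle Day 0 mouse 17 had 12.9 CPM of C1qa, 10.6 of C1qb, 13.8 of C1qc, 20.9 of Cfp and 81.7 of Serping1. Vehicle Day 1 mouse 29 had 6.77 CPM of C1qa, 6.27 of C1qc and 10.9 of Serping1.

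Serping1 was the 1 gene far out in 5 further hepatocyte-marked mice, at 5.71 CPM in mouse 1, 16.4 in mouse 9, 13.0 in mouse 21, 21.0 in mouse 37 and 9.41 in mouse 43. Mice without hepatocyte marks stood apart as well. Mouse 20 of 200 mg/kg on Day 0 had 9.87 CPM of C1qa, 6.69 of C1qb, 8.98 of C1qc and 16.7 of Cfp. Mouse 45 of 200 mg/kg on Day 1 had 4.5 CPM of C1qa and 3.73 of C1qb. Mouse 31 of 50 mg/kg on Day 1 had 31.0 CPM of C5ar1, 9.36 of C5ar2 and 11.2 of C3ar1, and its summed neutrophil list, 863.9 CPM, was the highest of its group. C5ar2 was 8.68 CPM in Vehicle Day 0 mouse 15 and 5.89 CPM in mouse 3 of 50 mg/kg on Day 0.

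The irradiation effect on Cd55 differed between BIO 300 at 200 mg/kg and vehicle, by 1.78 on the log2 scale in edgeR's quasi-likelihood test over 24 mice. The Cd55 levels of the irradiated groups overlapped and those of the unirradiated groups did not. All 8 genes of the B cell list and all 8 of the T cell list were called higher in this test, and all 7 of the platelet list lower, and their part was not tested.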

How the results depend on the processing

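Calls for the C1q genes, Serping1 and C3ar1 turned on the processing and on single mice, whereas those of C5ar1, C5ar2, Itgam and Cfp after irradiation held under every alternative run. With total counts, 1 member was called higher at 50 mg/kg on Day 0, 6 lower at 100 mg/kg and 6 lower at 200 mg/kg on Day 1, 8 higher and 0 lower after irradiation at 200 mg/kg, and 2 higher in the difference between irradiation effects. The calls over all genes were, in the same order, 2563 of 24485 higher, 14735 of 23699 lower and 15407 of 23513 lower. They were then 9100 of 23610 higher with 223 lower, and 11725 of 26875 higher. After irradiation with vehicle against Day 1, 9 members were called higher by DESeq2, 8 with filterByExpr and 9 in 1 fit over all 60 mice. Over all genes, these called 5419 of 25146, 3704 of 16117 and 6052 of 29271 higher. DESeq2 called 1 lower at 50 mg/kg on Day 1, beside 30 of 24118 genes. The fit with filterByExpr called 8 higher after irradiation at 200 mg/kg, beside 2215 of 13907 genes. DESeq2 gave no adjusted p in 16 of 120 fits of a member. Leaving out 1 mouse, the number called higher after irradiation with vehicle ranged from 4 to 9 against Day 1 (9 without mouse 29, 8 without mouse 52 or 53) and from 4 to 9 against Day 0 (9 without mouse 17), and from 4 to 8 after irradiation at 200 mg/kg (8 without mouse 60). It ranged from 0 to 1 at 100 and at 200 mg/kg on Day 1 (1 without mouse 29), and the number called lower in the difference between irradiation effects from 0 to 1 (1 without mouse 57). Calls over all genes were not kept for the fits that left out 1 mouse, so these ranges have no share of all genes beside them. Without the hepatocyte-marked mice, the log2 fold change after irradiation with vehicle turned to -0.21 for C1qa and -0.65 for C1qb, and without mouse 57 that of Serping1 at 200 mg/kg turned to -1.38, from a range of -1.38 to 5.10 over all mice left out in turn. Apart from the effect of fewer mice in these fits, the cause was not tested. No paired analysis was possible because each animal number belongs to 1 mouse. Depth limits C1q and Serping1 most, since many mice held 3 counts or fewer.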
